A study of Sus scrofa with 11 samples.

Results

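The small heat shock proteins and their co-chaperone BAG3 were followed in carotid artery of pigs (Sus scrofa) treated with carbon nanotubes. The 8 genes taken by name were HSPB1, HSPB2, HSPB3, HSPB6, HSPB7, HSPB8, CRYAB and BAG3, and 7 of these 8 had a row under that name in a count table of 35670 genes. HSPB2 had no row of its own, and HSPB3 had too few counts to be tested, which left 6 members among the 15930 genes that passed the filter on low counts. The members were selected on their fold changes between the treatment groups in these same libraries. The members' values in that contrast are therefore given as a description, with a fold change and its error, and with no test.

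Small heat shock proteins hold unfolding proteins in a soluble state until the HSP70 machinery can refold them or hand them on for degradation. BAG3 is a scaffold that joins a small heat shock protein, chiefly HSPB8, to HSP70 and sends damaged cytoskeletal proteins such as filamin to autophagy, a route known as chaperone-assisted selective autophagy. In muscle, smooth muscle of arteries included, several of these proteins are abundant without stress and sit on actin and desmin filaments, and HSPB1, CRYAB and BAG3 are also targets of the heat shock factor HSF1.

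The animals ate a high-fat, high-calorie Western diet for 12 weeks and had a weekly intravenous infusion, at 400 nM, of nanotubes loaded with a SHP-1 inhibitor (SWNT-SHP1i) or of bare single-walled nanotubes (SWNT). Both groups thus shared the diet, the anaesthesia for each infusion and the carrier, and no group without nanotubes was analysed here. The study asked whether blocking SHP-1, a phosphatase that restrains engulfment by macrophages, lowers inflammation and the load of dying cells in the vessel. Counts covered 5 SWNT-SHP1i animals (replicates 1, 2, 3, 5 and 6) and 5 SWNT animals (replicates 1 to 5), with 27593564 to 47718854 counts per library. The labels give no age, sex, breed or batch, and they list a further SWNT-SHP1i animal, replicate 4, as having died before harvest.

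The defining markers of arterial smooth muscle were present in every library. ACTA2, the smooth muscle actin, had 6196 to 10636 CPM (counts scaled to library size after correction by the trimmed mean of M-values) in SWNT-SHP1i and 9378 to 14341 CPM in SWNT. SWNT-SHP1i replicate 6 stood apart, with the lowest smooth muscle and the highest macrophage scores of all 10 libraries, and SWNT-SHP1i replicate 3 had 8.61% mitochondrial counts, where the other 9 libraries had 1.16% to 2.97%. SWNT replicate 3 had the highest score of immediate early genes, the transcription factors and phosphatases switched on within minutes of handling or stress.

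The members were not expressed alike. Levels can be compared between genes only per length of transcript, so counts were also divided by the exon length in the table (RPKM, CPM per kilobase of exon). HSPB6, a small heat shock protein that binds actin-regulating partners in smooth muscle and is phosphorylated during relaxation, was the most abundant by far, with 655 ± 60.5 RPKM in SWNT-SHP1i and 846 ± 207 RPKM in SWNT (SD, n = 5 each). By CPM it ranked 90 of 15930 genes over all libraries. HSPB1, the broadly expressed HSP27, came next with 227 ± 64.5 RPKM in SWNT-SHP1i and 348 ± 213 RPKM in SWNT, and lay below HSPB6 in every library.

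Below them stood a middle tier. HSPB8, the partner of BAG3, had 57.2 ± 19.1 RPKM in SWNT-SHP1i and 78.4 ± 17.2 RPKM in SWNT, and CRYAB, the alpha-B crystallin that guards desmin filaments, had 53.3 ± 28.1 RPKM in SWNT-SHP1i and 81.4 ± 23.4 RPKM in SWNT. These neighbours were not separated beyond their spread in either group, and HSPB8 was above CRYAB in 3 of 5 SWNT-SHP1i libraries while CRYAB was above HSPB8 in 2 of 5 SWNT libraries. BAG3 had 37.4 ± 5.39 RPKM in SWNT-SHP1i and 44.3 ± 14.9 RPKM in SWNT. In SWNT-SHP1i it overlapped with CRYAB within the spread, and in SWNT with HSPB7. HSPB7, a small heat shock protein best known from heart and skeletal muscle, was the lowest of the tested members with 14.9 ± 5.11 RPKM in SWNT-SHP1i and 30.2 ± 11.13 RPKM in SWNT. Its exon length in the table is 5908 bases, more than the whole RefSeq gene spans (chr6:75171507-75174918), so its RPKM depends on the annotation used.

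**Figure D1:**
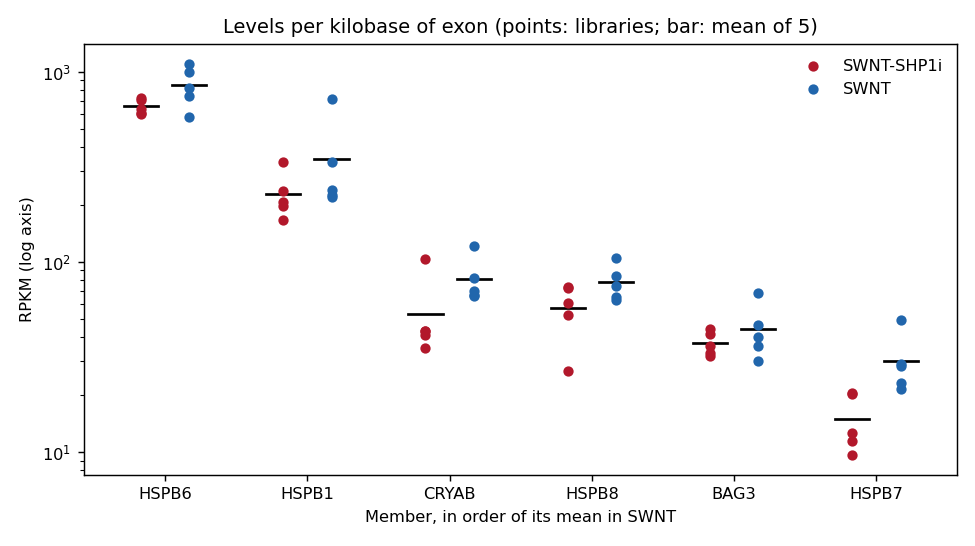
Level of each tested member per kilobase of exon (RPKM, log axis) in the 5 SWNT-SHP1i libraries (red, left) and the 5 SWNT libraries (blue, right); points are libraries and bars are means. HSPB6 is highest, at 655 RPKM in SWNT-SHP1i and 846 RPKM in SWNT on average, and HSPB7 lowest, at 14.9 and 30.2 RPKM in the same order of groups.

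HSPB3, a small heat shock protein of skeletal and cardiac muscle, was at 0 counts in 9 of 10 libraries. SWNT-SHP1i replicate 2 held 6 counts, or 0.147 CPM (exact Poisson 95% interval 0.0538 to 0.319, counting error only). A count of 0 allows a level of up to 0.0670 to 0.125 CPM in these libraries (3 counts), so the gene was at or near the detection limit in both groups.

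CRYAB and HSPB2 lie back to back on chromosome 9. CRYAB is at chr9:39638506-39643530 on the minus strand of Sscrofa11.1, and RefSeq places HSPB2 at chr9:39640117-39644104, so the gene spans overlap. The table has no row named HSPB2 there. The CRYAB row has 1164 of its 1507 exon bases inside the HSPB2 span. Whether reads of HSPB2 were counted in the CRYAB row was not tested. A row on the plus strand without a symbol, ENSSSCG00000015027 at chr9:39612409-39660648, has 1302 of its 4507 exon bases inside the HSPB2 span and shares 394 exon bases with CRYAB. That row was not taken as HSPB2, since most of its exons lie elsewhere. It had 648, 790, 854, 2130 and 568 counts in SWNT-SHP1i replicates 1, 2, 3, 5 and 6, and 758, 1133, 1213, 1054 and 605 counts in SWNT replicates 1 to 5. Its highest value was in SWNT-SHP1i replicate 5, the library that was also highest for CRYAB in its group. The strand setting of the counting is not given in the sources used here, so reads where exons of opposite strands overlap cannot be assigned with certainty.

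HSPB1 lies at chr3:10037949-10039704 (minus strand), HSPB6 at chr6:45181443-45183998 (minus), HSPB7 at chr6:75166992-75175013 (minus), HSPB8 at chr14:33626120-33640792 (minus), BAG3 at chr14:129466905-129533987 (plus) and HSPB3 at chr16:33716626-33719018 (plus). HSPB6, HSPB7 and HSPB8 share no span with another row of the table. BAG3 shares 208 exon bases with the neighbouring gene TIAL1 and HSPB1 shares 392 with an unnamed row on the other strand.

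Between treatments, the 6 tested members had lower mean levels in SWNT-SHP1i than in SWNT, by very unequal amounts. Over all 15930 genes, edgeR's quasi-likelihood test with Benjamini-Hochberg adjustment called 0 (0%). At an unadjusted p under 0.05 that test takes 739 genes (4.64%), of which 183 are lower in SWNT-SHP1i (1.15%), and DESeq2 and limma-voom also called 0 genes at an adjusted p under 0.05. Fold changes of the members ran from -1.02 to -0.25 on the log2 scale (SWNT-SHP1i over SWNT). Over all genes tested the median was 0.01, and 49.2% had a negative fold change. Nothing is read from the shared sign of the members, since the contrast was known when they were chosen.

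**Figure D2:**
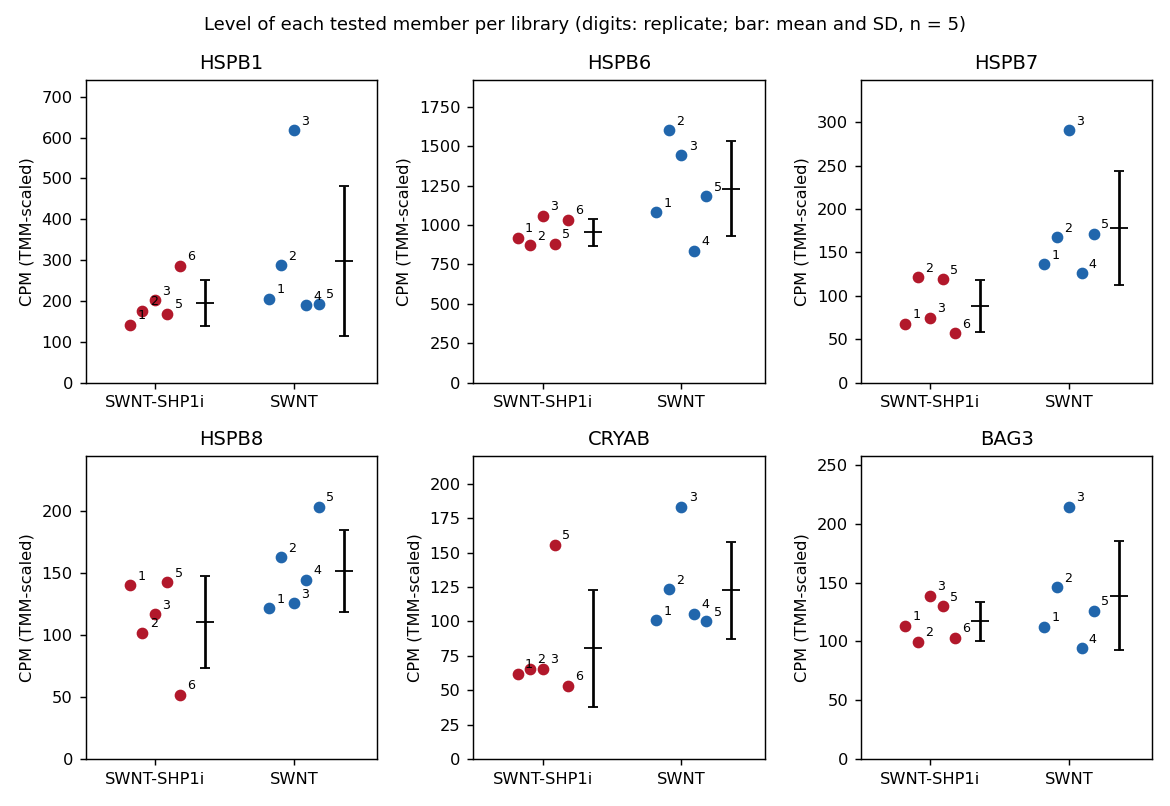
CPM of each tested member in every library, SWNT-SHP1i (red, left) and SWNT (blue, right), with the replicate number beside each point and the mean ± SD of 5 libraries in black. HSPB7 is the member whose groups do not overlap, CRYAB has a single high SWNT-SHP1i library (replicate 5, 156 CPM), and HSPB1 has a single high SWNT library (replicate 3, 618 CPM).

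HSPB7 showed the largest difference. It had 67.8, 121, 74.6, 119 and 56.8 CPM in SWNT-SHP1i replicates 1, 2, 3, 5 and 6, and 136, 167, 291, 126 and 171 CPM in SWNT replicates 1 to 5. Each of the 5 SWNT-SHP1i libraries was below each SWNT library, the nearest pair being 121 and 126 CPM. Such a separation was seen in 0.276% of all genes tested (44 genes), against 0.0816% (13 genes) in the other direction. The fitted log2 fold change was -1.02 ± 0.29 (SE), a 0.493-fold level. Leaving out any single library gave -1.17 to -0.78.

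CRYAB had a split pattern in the treated group. Its levels were 62.0, 65.5, 65.5, 156 and 53.2 CPM in SWNT-SHP1i replicates 1, 2, 3, 5 and 6, and 101, 123, 183, 106 and 100.1 CPM in SWNT replicates 1 to 5. In all, 4 of 5 SWNT-SHP1i libraries were below every SWNT library, and replicate 5 was above all SWNT libraries but replicate 3. With all libraries the log2 fold change was -0.61 ± 0.31 (SE). It was -0.996 when SWNT-SHP1i replicate 5 was left out and -0.37 when replicates 3 and 6 of that group were, and over the animals whose numbers begin with B9, which leaves out replicate 3 of each group, -0.35.

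HSPB1 had 142, 176, 202, 169 and 286 CPM in SWNT-SHP1i replicates 1, 2, 3, 5 and 6, and 205, 287, 618, 189 and 193 CPM in SWNT replicates 1 to 5. The group means, 195 ± 55.3 CPM in SWNT-SHP1i and 298 ± 183 CPM in SWNT (SD, n = 5), were set apart mostly by SWNT replicate 3. The log2 fold change of -0.61 ± 0.35 was -0.17 without that library and -0.18 over the B9 animals. In SWNT-SHP1i, 3 of 5 libraries were below all SWNT libraries. Over all genes, at least 3 such libraries were found for 12.8%, and among the members for 4 of 6 (HSPB1, HSPB7, HSPB8 and CRYAB), a count from which nothing is read for the reason given above.

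HSPB8 had 140.0, 102, 117, 142 and 51.6 CPM in SWNT-SHP1i replicates 1, 2, 3, 5 and 6, and 122, 163, 126, 145 and 203 CPM in SWNT replicates 1 to 5. The groups overlapped, with SWNT-SHP1i replicates 1 and 5 inside the SWNT range and replicate 6 far below it. The log2 fold change was -0.46 ± 0.27 (SE) with all libraries. Leaving out SWNT-SHP1i replicate 6 gave -0.28, and leaving out replicates 3 and 6 together gave -0.24.

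BAG3 had 113, 99.8, 139, 129.95 and 103 CPM in SWNT-SHP1i replicates 1, 2, 3, 5 and 6, and 112, 146, 215, 94.4 and 126 CPM in SWNT replicates 1 to 5. All SWNT-SHP1i values lay within the SWNT range. Its log2 fold change was the smallest of the members, -0.25 ± 0.23, and was -0.04 without SWNT replicate 3 and -0.10 over the B9 animals.

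HSPB6 had 920.4, 872, 1060.4, 881 and 1035 CPM in SWNT-SHP1i replicates 1, 2, 3, 5 and 6, and 1084, 1603, 1444, 838 and 1185 CPM in SWNT replicates 1 to 5. All SWNT-SHP1i values were again inside the SWNT range, and they were closer together, with a coefficient of variation of 9.23% in SWNT-SHP1i and 24.4% in SWNT. The log2 fold change was -0.37 ± 0.20 (SE), and leaving out single libraries gave -0.49 to -0.26.

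The fold changes of the members were next read beside the amount of smooth muscle transcript in each library. Of 19 tested markers of contractile smooth muscle, 18 had negative fold changes, with a median of -0.56 on the log2 scale, and 0 were called. Their summed level was 26397 to 63536 CPM in SWNT-SHP1i and 53246 to 78082 CPM in SWNT, and no marker was at 0 in any library. Their score, the mean deviation from the average of all libraries, was -0.24, 0.05, -0.40, 0.52 and -1.68 log2 units in SWNT-SHP1i replicates 1, 2, 3, 5 and 6, and 0.09 to 0.65 in SWNT. In whole artery, fewer smooth muscle cells and less RNA of these genes per cell cannot be told apart.

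With that score as a covariate in the fit, the members parted. HSPB8 went to a log2 fold change of -0.02 ± 0.19 (SE), CRYAB to -0.32 ± 0.28 and BAG3 to -0.16 ± 0.25. HSPB7 stood at -0.72 ± 0.27, HSPB6 at -0.39 ± 0.22 and HSPB1 at -0.90 ± 0.38. The covariate itself differs between the groups, and 0 genes were called in that fit. SWNT-SHP1i replicate 6 had a score of -1.68, where the other libraries ran from -0.40 to 0.65. That library was also the lowest of all for HSPB8 (51.6 CPM) and the highest of its group for HSPB1 (286 CPM). The covariate fit was not repeated without it. Subtracting the score from each member's log2 CPM instead carries the score's own group difference into every member (means -0.35 in SWNT-SHP1i, 0.35 in SWNT). With group means removed, the score had r = 0.88 with HSPB8, 0.63 with HSPB7 and 0.59 with CRYAB. With BAG3, HSPB6 and HSPB1 it had r = 0.23, -0.06 and -0.37, so these members hardly followed it or ran against it. The subtraction turned the direction of 5 of 6 members. The difference, SWNT-SHP1i minus SWNT, was then 0.21 log2 units for HSPB1, 0.37 for HSPB6, 0.19 for HSPB8, 0.011 for CRYAB and 0.50 for BAG3, and -0.32 for HSPB7. These differences lean on SWNT-SHP1i replicate 6, the library with the lowest smooth muscle score. Its subtracted values were the highest of its group for HSPB1 (2.03), HSPB6 (1.64), CRYAB (0.86) and BAG3 (1.41). The subtraction was not repeated without that library, so the turned directions may not hold there. In the other SWNT-SHP1i libraries, values ran from -0.93 to 0.25 for HSPB1 (SWNT mean -0.11) and -0.80 to 0.39 for HSPB6 (-0.18). They ran from -0.34 to 0.41 for HSPB8 (-0.09), -0.57 to 0.21 for CRYAB (-0.006) and -0.46 to 0.56 for BAG3 (-0.25). Each of these ranges held the SWNT mean of its gene. Relative to smooth muscle, the direction of HSPB1, HSPB6, HSPB8, CRYAB and BAG3 therefore depends on how the score is used. HSPB8 with the covariate (-0.02) and CRYAB after subtraction (0.011) were near 0. HSPB7 was lower in SWNT-SHP1i both ways, but its subtracted values had an SD of 0.48 in SWNT-SHP1i and 0.49 in SWNT. Among them SWNT replicate 3 stood high at 1.02, with the next highest SWNT library at 0.10. The subtraction was not repeated without SWNT replicate 3. All of these values are descriptions.

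**Figure D3:**
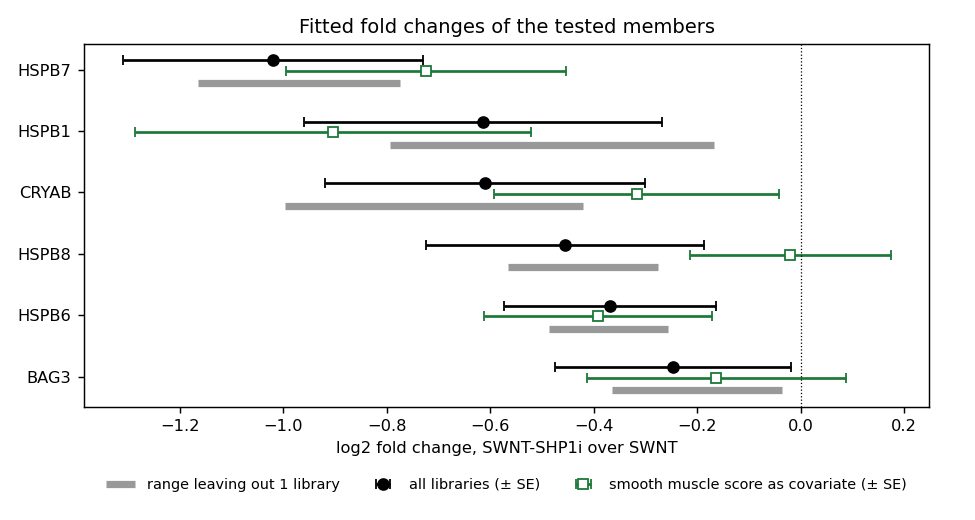
Fitted log2 fold change of each tested member, SWNT-SHP1i over SWNT, with all libraries (black, ± SE) and with the smooth muscle score as a covariate (green, ± SE); the grey bar is the range over 10 fits that each leave out 1 library. HSPB8 is at -0.02 with the covariate and -0.46 without it, while HSPB6 stays near -0.37 and HSPB1 goes to -0.90.

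Markers of other cell types were read in the same way. All 18 macrophage markers had positive fold changes (median 1.45, but 0.38 with the smooth muscle covariate and 0.85 without SWNT-SHP1i replicate 6), with a summed level of 477 to 3189 CPM in SWNT-SHP1i and 475 to 1423 CPM in SWNT. The most abundant were C1QB, CSF1R and C1QC, at log2 fold changes of 0.93 ± 0.40, 0.96 ± 0.39 and 0.85 ± 0.41 (SE), and only MARCO was at 0 in some libraries. Fibroblast markers were positive in 12 of 13 (median 0.47), with 71103 to 106058 CPM in SWNT-SHP1i and 41546 to 84803 CPM in SWNT. Schwann cell and nerve markers were negative in 9 of 11 (median -0.53), with 328 to 547 CPM in SWNT-SHP1i and 488 to 603 CPM in SWNT. In these lists 0 genes were called, and their part in the members' values was not tested.

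Since HSPB3, HSPB7 and CRYAB are known from striated muscle, its markers were checked for tissue taken along with the artery. Of 28 such markers in the table only 13 passed the filter, and MYH4 and TRDN were at 0 in every library, with 20 more at 0 in some. The most abundant were TNNC1, ACTN2 and CKM, and their summed level with the rest was 181 to 452 CPM in SWNT-SHP1i and 244 to 396 CPM in SWNT. These 3 did not move together. TNNC1, a slow troponin, and ACTN2, a sarcomeric actinin, had log2 fold changes of -0.56 ± 0.18 and -1.22 ± 0.76, and CKM, the muscle creatine kinase, had 2.61 ± 0.69 (SE). In SWNT-SHP1i replicate 5, the library highest for CRYAB in its group, TNNC1 (166 CPM) and ACTN2 (105 CPM) were at their highest in that group and CKM (8.06 CPM) at its lowest. The list's median log2 fold change was 0.33, with 7 positive and 6 negative genes and 0 called, and its sign changed in 3 of 22 alternative fits.

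**Figure D4:**
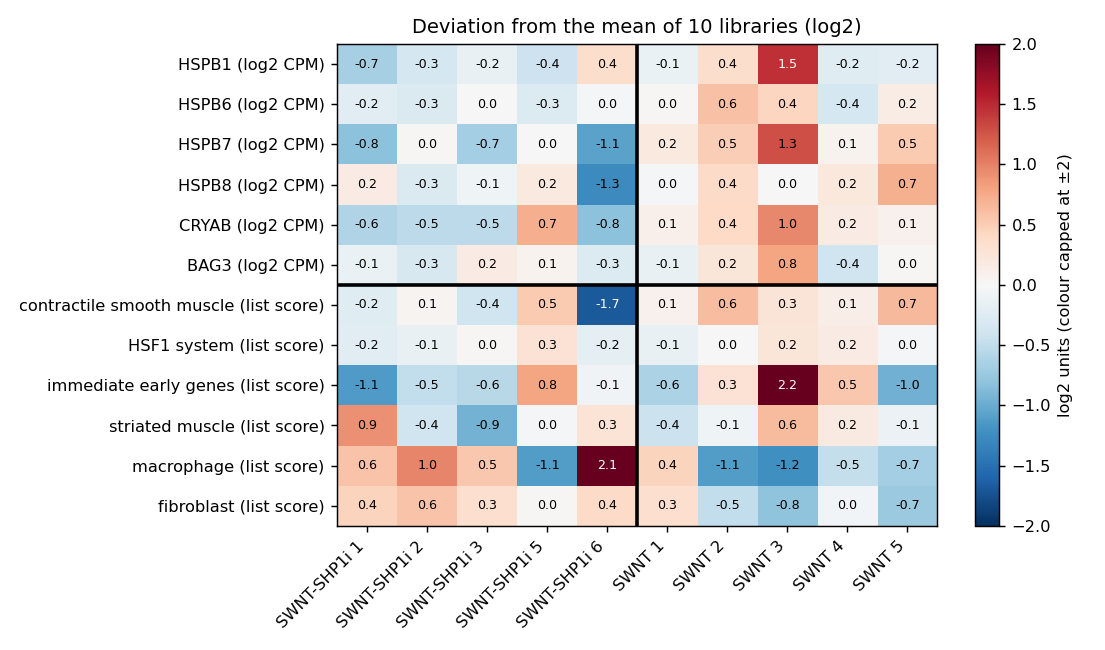
Deviation of each library from the mean of all 10, in log2 units, for the 6 tested members (log2 CPM) and for 6 gene lists (mean over genes); SWNT-SHP1i libraries stand left of the line and SWNT libraries right of it. SWNT replicate 3 is high for HSPB1, HSPB7, CRYAB, BAG3 and the immediate early genes, and SWNT-SHP1i replicate 6 is low for HSPB8 and smooth muscle and high for macrophages.

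The rest of the chaperone system was described from lists of its genes. Of 35 tested HSP70, HSP90 and co-chaperone genes, 13 had positive and 22 negative fold changes, with a median of -0.07 (0.06 with the smooth muscle covariate), and 0 were called in either direction. The smallest p-values belonged to HSPA12B, a distant HSP70 relative of endothelium (0.79 ± 0.24), and to UNC45A, a myosin chaperone (-0.45 ± 0.19), followed by the J-domain proteins DNAJB5 (-0.59 ± 0.33) and DNAJB2 (-0.38 ± 0.21). All 4 had an adjusted p = 0.997 by edgeR's quasi-likelihood test.

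Genes of the HSF1 system, the heat shock factors, their regulators and stress-induced targets, had a median of 0.05 over 13 tested genes, with 8 positive and 5 negative and 0 called, and the sign of that median changed in 4 of 22 alternative fits. The list named 15 genes, of which 13 had a row. HSP70.2, an inducible HSP70 gene of the pig described further below, is neither in this list nor in the HSP70 list above. SERPINH1, the collagen chaperone HSP47, had a log2 fold change of 0.52 ± 0.29, HSPA8, the constitutive HSP70, 0.25 ± 0.21, and DNAJB1, the HSP40 that works with inducible HSP70, 0.78 ± 0.67, each with an adjusted p = 0.997 (edgeR). SERPINH1 was at 0.19 without SWNT-SHP1i replicate 6. DNAJB1 was high in a single animal, and its log2 fold change was -0.70 without SWNT-SHP1i replicate 5. It had 75.8, 71.3, 81.0, 811 and 98.0 CPM in SWNT-SHP1i replicates 1, 2, 3, 5 and 6, and 81.7 to 195 CPM in SWNT.

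Partners and clients of BAG3-driven autophagy were measured in 30 of 30 cases. Of these, 11 were positive and 19 negative, with a median of -0.10 and 0 called. DES, which encodes desmin and is also a smooth muscle marker, had a log2 fold change of -1.21 ± 0.59 (SE), the filamin gene FLNA -0.62 ± 0.31, the Hippo kinase gene LATS2 -0.37 ± 0.20 and the actin-binding SYNPO -0.41 ± 0.24 (adjusted p = 0.997 each, edgeR). DES was at 227 to 4757 CPM in SWNT-SHP1i and 3187 to 6039 CPM in SWNT, and 4 of 5 SWNT-SHP1i libraries were below all SWNT libraries.

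Among other small heat shock and BAG proteins, 6 of 9 passed the filter, with a median log2 fold change of -0.09 (1 positive, 5 negative, 0 called). BAG2, a regulator of the ubiquitin ligase CHIP, had -0.32 ± 0.25, BAG1, the founding member of the BAG family, -0.11 ± 0.15, BAG6 -0.11 ± 0.20 and BAG5 -0.08 ± 0.18. Endoplasmic reticulum chaperones had a median of -0.01 over 20 genes (9 positive, 11 negative, 0 called; the sign changed in 10 of 22 alternative fits), led by the disulfide isomerase P4HB at 0.48 ± 0.32, SDF2L1 at 1.05 ± 0.77, CRELD2 at 0.56 ± 0.44 and DNAJB11 at -0.21 ± 0.19. The first 3 of these rested on SWNT-SHP1i replicate 6, where SDF2L1 had 20.05 CPM, against 1.17 to 2.13 CPM in the other SWNT-SHP1i libraries. Without that library P4HB was at 0.03, SDF2L1 at -0.61 and CRELD2 at -0.14.

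**Figure D5:**
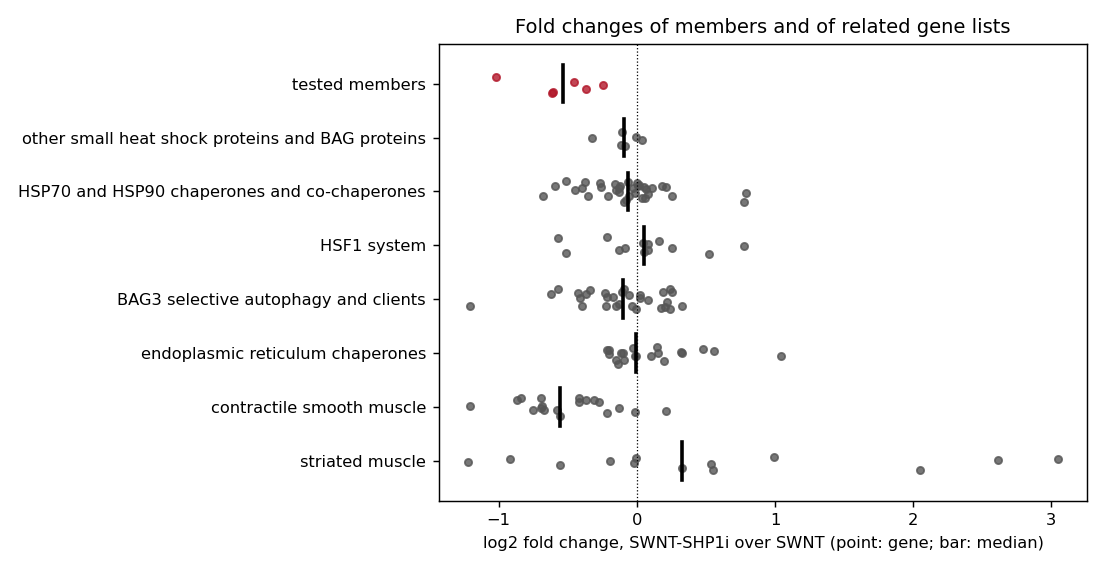
Log2 fold change, SWNT-SHP1i over SWNT, of the tested members (red) and of the genes of 7 related lists (grey); each point is a gene and each bar a median. The medians are -0.53 for the members, -0.56 for contractile smooth muscle, and between -0.10 and 0.05 for the 5 chaperone and autophagy lists.

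The last comparison asked which members varied together between animals. To keep the treatment difference out, each group's mean was removed, and the 15 pairs of tested members were compared over the 10 libraries. Each p is from an exact permutation test (two-sided) of the animals within each group. The coefficient was positive in 13 pairs, and 0 of 15 passed at an adjusted p under 0.05. HSPB7 and CRYAB were closest, with Pearson's r = 0.75 (exact p = 0.00694, adjusted p = 0.104) and Spearman's rho = 0.68 (exact p = 0.0485, adjusted p = 0.243). Without SWNT replicate 3 and SWNT-SHP1i replicate 2, the 2 libraries farthest from the median of HSPB7, r was 0.89. That choice kept SWNT-SHP1i replicate 5, which stood apart for CRYAB. For this pair r was not calculated without replicate 5, so how far the relation rests on that library is not known. HSPB6 and BAG3 gave r = 0.74 (exact p = 0.0680, adjusted p = 0.170) and rho = 0.77 (exact p = 0.0253, adjusted p = 0.243), and r = 0.74 without 2 libraries.

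BAG3 and HSPB8, which form a protein complex, gave r = 0.14 (exact p = 0.622, adjusted p = 0.701) and rho = 0.39 (exact p = 0.315, adjusted p = 0.472), and r = -0.08 without 2 libraries. HSPB1 and HSPB8 ran against each other with r = -0.55 (exact p = 0.0624, adjusted p = 0.170) and rho = -0.39 (exact p = 0.197, adjusted p = 0.421). Without SWNT replicate 3 and SWNT-SHP1i replicate 6 that relation no longer held (r = -0.03). HSPB8 and CRYAB gave r = 0.34 (exact p = 0.373, adjusted p = 0.560), rho = 0.28 (exact p = 0.425, adjusted p = 0.501) and r = -0.47 without SWNT-SHP1i replicates 6 and 5.

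The genes most like each member were sought over the same centred values among 13530 named genes. No p is given for these coefficients, since each is among the highest of 13530, and all genes of a library share its depth and its mix of cells. CRYAB was most like HSP70.2, an inducible HSP70 gene of the pig (r = 0.96), then INHBA and NR4A2 (both 0.96). HSP70.2 had 107, 110.3, 129, 1403 and 106 CPM in SWNT-SHP1i replicates 1, 2, 3, 5 and 6, and 155, 522, 696, 211 and 140.1 CPM in SWNT replicates 1 to 5. The library highest for HSP70.2 in each group was therefore the one highest for CRYAB. The group difference of HSP70.2 itself was 0.11 ± 0.80 on the log2 scale.

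HSPB8 was most like the glycosyltransferase gene B3GALT1 (r = 0.98), the zinc finger gene ZMYM2 (0.97) and MYOCD (0.97), which encodes myocardin, the coactivator of smooth muscle genes. MYOCD had 52.3, 20.5, 23.8, 69.7 and 3.49 CPM in SWNT-SHP1i replicates 1, 2, 3, 5 and 6, and 25.3, 45.5, 18.3, 22.5 and 59.5 CPM in SWNT replicates 1 to 5, and SWNT-SHP1i replicate 6 was the lowest library for both MYOCD and HSPB8. HSPB7 was most like STAC2 (0.93), WFS1 (0.93) and MAFK (0.93). HSPB1 was most like MOB2 (0.98), UBALD1 (0.97) and PPDPF (0.96), HSPB6 most like USP11 (0.93), WIZ (0.92) and PLEKHG2 (0.90), and BAG3 most like TM7SF2 (0.97), LIMS2 (0.96) and ELL (0.94). The 18 genes named by this rule were all different, and no member shared its nearest genes with another. Leaving out SWNT-SHP1i replicate 6 gave r = 0.90 for HSPB8 with MYOCD, leaving out SWNT replicate 3 gave r = 0.93 for HSPB1 with MOB2, and leaving out SWNT-SHP1i replicate 5 gave r = 0.87 for CRYAB with HSP70.2.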

How the data were processed

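Poly-A selected RNA was sequenced per the labels' protocols. The authors deposited unnormalized counts for each gene in 1 table. Per the submitters' processing notes, Trim Galore, STAR and DESeq2 were used with Sscrofa11.1. Which program counted the reads, and with what strand setting, is not stated there. Exon lengths come from the same table, per the file headers.

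Rows were taken by gene name. List genes were also named by identifier (223 rows) or by position in RefSeq (866 rows, overlap of at least 0.5 of the union). Library pairs differed by more than sampling noise (lowest median chi-square per gene 5.56, noise 0.455), so all 10 counted as replicates, numbered in accession order; the labels give each its own animal number.

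Counts were filtered with filterByExpr (minimum count 10), scaled by TMM and tested with the robust quasi-likelihood fit of edgeR 4.0.16 (R 4.3.3) without covariates, adjusted over 15930 genes at a threshold of 0.05. Each SE was derived from the fold change and its F statistic. Log2 CPM used a prior count of 2. The fit was tested on simulated data. DESeq2 1.42.0, limma 3.58.1, other scalings and filters, covariates and left-out libraries were alternatives. Members, lists and tests were chosen with earlier results of these data known. The genes named are the members, up to 4 genes with the smallest p of each pathway list and up to 3 of the most abundant of a marker list, and the 3 genes most like each member. Of these, 1 gene is not reported here. Intervals cover counting error only.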

Additional observations from a re-analysis of the deposited data

Results flagged for a closer look

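Within each group of 5 libraries, 3 of 44 sets of values had a library whose gap to its nearest neighbour took up an unusually large part of the whole range (Dixon's test, which chance alone passes in about 1 of 20 groups). CRYAB stood at 7.28 log2 CPM in SWNT-SHP1i replicate 5, where the next highest SWNT-SHP1i library had 6.03. The score of Schwann cell and nerve markers was -1.14 in SWNT-SHP1i replicate 6, against -0.20 in the next lowest. The score of endoplasmic reticulum chaperones was 0.38 in that same library, with the next highest of the group at -0.00027.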

How the results depend on the processing

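The 6 tested members kept negative fold changes in all 22 alternative fits (132 values, 0 with a changed sign). Nothing is read from this count, since the members were selected on their fold changes and the fits reuse the same libraries. Not all members kept the sign when the smooth muscle score, which itself differs between the groups, was subtracted from their log2 CPM. That left 1 of 6 negative (HSPB7, -0.32), with HSPB1 at 0.21, HSPB6 at 0.37, HSPB8 at 0.19, CRYAB at 0.011, BAG3 at 0.50 and a median of 0.20. Neither the subtraction nor the covariate fit was repeated without SWNT-SHP1i replicate 6. That library had the highest subtracted values of its group for HSPB1, HSPB6, CRYAB and BAG3. Over the fits the median of the members, -0.53 on the log2 scale, ran from -0.60 to -0.36 over the fits that leave out 1 library and from -0.54 to -0.35 over the others. The count of genes called was 0 in every fit at a threshold of 0.05. At 0.1 it was also 0 in the edgeR fits, 16 with DESeq2 and 1 with limma-voom with quality weights. HSPB7 ranged from -1.17 to -0.72. HSPB1 ranged from -0.90 (smooth muscle covariate) to -0.17 (without SWNT replicate 3), and HSPB8 from -0.56 to -0.02 (smooth muscle covariate). The cause was not tested. That subtraction, the fit without globin and mitochondrial genes, and the values of named list genes and likeness without single libraries were added after seeing the data. Scalings moved the median of all genes by at most 0.03. No paired analysis was possible because each library came from a different animal, and each animal had a single treatment.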

Other observations

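A row without a symbol, ENSSSCG00000037567 at chr3:10038386-10039952, lies on the strand opposite to HSPB1 and shares 392 of its 459 exon bases with that gene. It had 3, 21, 0, 83 and 5 counts in SWNT-SHP1i replicates 1, 2, 3, 5 and 6, and 20, 43, 273, 59 and 24 counts in SWNT replicates 1 to 5. Its highest value was in SWNT replicate 3, which was also the library highest for HSPB1 itself (27688 counts).

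Of the marker lists not described above, endothelial genes had a median log2 fold change of 0.24 (13 tested), adipocyte genes -0.33 (10), lymphocyte genes 0.02 (13), neutrophil genes 2.93 (7) and erythroid genes -1.45 (4), with 0 genes called in each. Across 22 alternative fits the sign changed in 2 for endothelial, 2 for adipocyte and 13 for lymphocyte genes, and the neutrophil median was 0.07 with the smooth muscle covariate. SWNT replicate 3 had the highest summed erythroid level (1300 CPM). Without it the log2 fold changes were -0.10 for HBB, -0.28 for ALAS2 and -0.60 for EPB42, where all libraries gave -1.44, -1.46 and -1.03. SWNT-SHP1i replicate 6 had the highest summed neutrophil level (345 CPM). Without it MMP9 was at 1.23, PGLYRP1 at 2.77 and CSF3R at 1.51, where all libraries gave 5.54, 3.53 and 2.29. Immediate early genes had a median of -0.60, with 20 of 20 negative and 0 called. Without replicate 3 of both groups that median was 0.07.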
